A study of Mus musculus with 6 samples.

Results

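Enzymes that modify foreign chemicals, bile acids, steroids and products of lipid oxidation were described in crypt epithelial cells of the mouse small intestine, with and without the gene Apln. The set held the protein-coding genes whose symbols place them in the cytochrome P450 families Cyp1 to Cyp4, the flavin monooxygenases (Fmo), carboxylesterases (Ces), aldo-keto reductases of family 1 (Akr1), quinone reductases (Nqo), cytosolic glutathione S-transferases and their mitochondrial relative Gstk1 (Gst), sulfotransferases (Sult) and UDP-glucuronosyltransferases (Ugt1 and Ugt2). Selection was by symbol alone, under a rule set with earlier results of these data known. The mouse annotation (GENCODE M21) lists 187 such genes, and 127 of them were among the 28564 genes of the count table. The other 60 were not analysed here.

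These enzymes work in sequence. Phase 1 enzymes, among them the P450s, flavin monooxygenases, carboxylesterases and reductases, add or expose a reactive group on a lipophilic molecule. Phase 2 enzymes then attach glutathione (Gst), sulfate (Sult) or glucuronic acid (Ugt), which makes the product more soluble and easier to export. The intestinal epithelium is the first tissue that swallowed chemicals cross, and mature villus enterocytes are known as its main site of this metabolism. Crypts lie between the villi and hold the intestinal stem cells, the progeny that divide there and Paneth cells, which release antimicrobial proteins.

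Small intestines of male mice aged 13 weeks were digested with Liberase TL, and live single cells with EpCAM, an epithelial surface protein, and CD44, which marks crypt cells, were sorted, leaving out those with the endothelial protein CD31 or the leukocyte protein CD45. The 3 samples of wild-type control mice (C57Bl/6) and the 3 samples of Apln-/- mice are called biological replicates in the labels. Apln encodes apelin, a secreted peptide. How the allele was made, which strain carries it and whether a sample is 1 mouse or a pool were stated in no source used here. Apart from Apln neither group carries a labelled allele or treatment.

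Apln itself had 29, 7 and 5 counts in the wild-type libraries and 0, 0 and 0 in the knockout libraries. Libraries held 23046880 to 26513481 counts, of which 5 entries, ribosomal RNAs of the mitochondrion among them, took 70.7% to 75.3% in wild type and 77.3% to 78.9% in knockout. What was left for all other genes came to 6037237 to 7616648 counts in wild type and to 5144725 to 5623112 in knockout. The quasi-likelihood test of edgeR covered 15122 genes, of which 26 had an adjusted p under 0.05, 17 of them higher and 9 lower in knockout. Levels are given as CPM, the count of a gene relative to the TMM-scaled total of its library, and the floor of a library, 3 counts, corresponds to 0.0945 to 0.142 CPM. Levels of different genes are compared only as CPM per kilobase of the longest transcript.

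Crypt cells held RNA of 17 of the 18 families at testable levels, and Cyp1 was the exception. A count was present in all 6 libraries for 81 of the 127 genes and in 1 library only for 18. The low-count filter left 80 genes for testing: 13 with a mean under 1 CPM, 49 between 1 and 10 CPM and 18 at or above 10 CPM. Of these, 60 reached the count minimum of the filter in all 6 libraries. That minimum is 0.407 CPM before TMM scaling, unlike the scaled levels given elsewhere. A further 10 reached it in the 3 knockout libraries and in fewer than 3 wild-type ones, 3 did the reverse, and 7 completed neither group. No gene passed with 3 knockout and 0 wild-type libraries, but counts over the tested genes may lean toward the group in which a gene is high. The 47 genes left out had at most 186 counts in all 6 libraries together, and 17 of them had at most 3. The gene with 186, Cyp2d22 (named after its values were seen), drew 155 of them from wild-type replicate 2.

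The Akr1 family took the largest share of the set, 25.7% of its summed CPM per kilobase, followed by Gstm with 10.5%, Cyp4 with 9.56%, Gsto with 9.42%, Cyp2 with 7.84% and Ugt2 with 7.04%. In most families 1 or a few genes carried the level. The single highest gene was Akr1a1, an aldehyde reductase, with 42.9 CPM per kilobase. Next came Gsto1, an omega-class transferase that also reduces dehydroascorbate, with 29.0, and Ugt2b34, a glucuronosyltransferase, with 16.6. Gstm1, a mu-class glutathione transferase, followed with 15.01, and Akr1c12, a hydroxysteroid dehydrogenase, with 14.2. Sult1b1, which sulfates phenols and thyroid hormones, stood at 7.396 and Sult1d1, which sulfates catecholamines, at 6.46. Akr1c12 and Akr1c13 share 28.6% of their 50-base stretches, so reads could be split between them.

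The family best known for induction by aryl hydrocarbons was near the floor. Cyp1a1, the classic target of the aryl hydrocarbon receptor, had 13, 0 and 0 counts in wild type and 0, 1 and 0 in knockout, and Cyp1b1 had 6 counts in all. Neither was tested, and 0 counts at this depth do not show that the RNA is absent. Cyp3a11, a main drug-metabolising P450 of liver and villus, had 0.389 CPM per kilobase, against 3.30 for Cyp3a13, which held 75.7% of the Cyp3 level, and 0.595 for Cyp3a25. All 3 tested Cyp3 genes had counts in all 6 libraries.

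**Figure D1:**
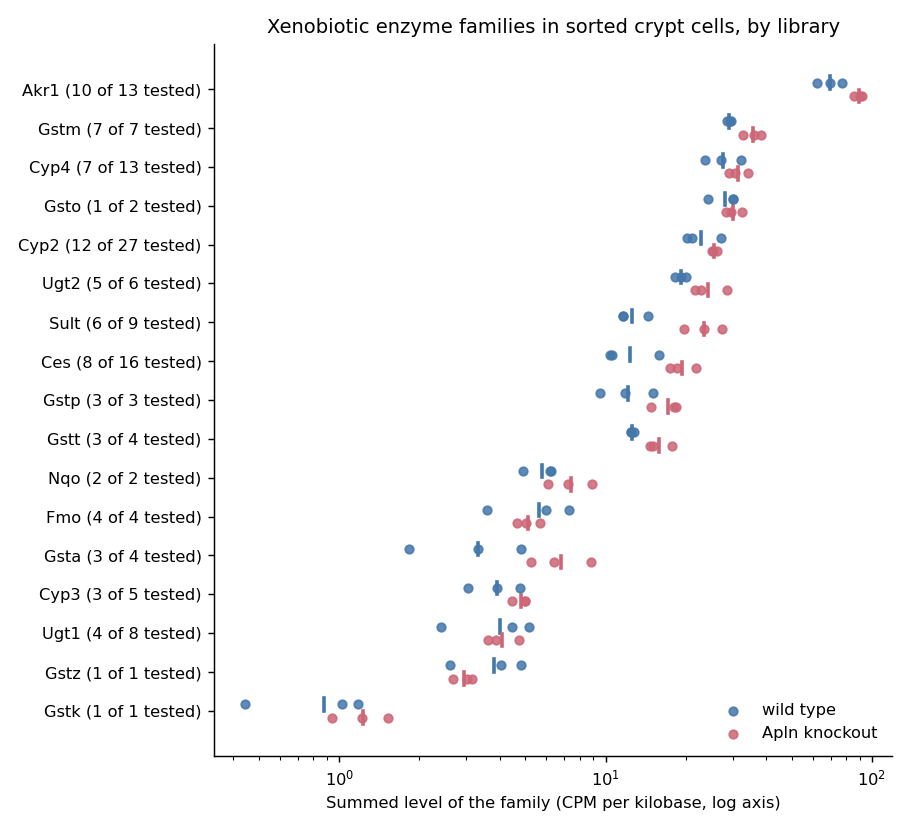
Summed level of each family in CPM per kilobase (log axis); each point is 1 library, blue for wild type and red for Apln knockout, and the vertical bars are group means. Akr1 is highest, at 62.3 to 76.9 in wild type and 85.4 to 91.5 in knockout, and Gstk is lowest of the families shown; Cyp1, with no tested gene, is left out.

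One of the 80 tested enzymes, Sult1d1, differed between genotypes past the adjusted threshold, and it was higher in knockout. Its neighbour Sult1b1 had a log2 fold change of like size with an adjusted p of 0.0556. Of all genes tested, 0.172% passed the adjusted threshold in either direction and 0.112% passed it as higher in knockout (edgeR's quasi-likelihood test, Benjamini-Hochberg). The remaining enzymes are described with their values, none of which passed it.

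Sult1d1 (ENSMUSG00000029273; GRCm38 chromosome 5, 87554645 to 87569027, minus strand) measured 9.03, 8.84 and 11.7 CPM in wild type and 19.2, 24.0 and 21.1 CPM in knockout. Every knockout library was above every wild-type library. The means were 9.84 ± 1.57 and 21.4 ± 2.42 CPM (SD, n = 3 each). Sult1d1 RNA rose 2.17-fold (log2 fold change 1.12 ± 0.19 SE, adjusted p = 0.0460 by edgeR's quasi-likelihood test). The call was close to the threshold: with DESeq2 size factors in the same edgeR fit the adjusted p was 0.0501, and after libraries were corrected for length and GC content of the transcripts it was 0.0938. It was also lost without wild-type replicate 1 (adjusted p = 0.139 in edgeR) or 2 (0.121) and without knockout replicate 1 (0.331), 2 (0.136) or 3 (0.172), and kept without wild-type replicate 3 (0.0164).

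Sult1b1 (ENSMUSG00000029269; chromosome 5, 87513339 to 87538195, minus strand) lies 16449 bases away on the same strand, with no gene of the count table in between. Its level was 11.1, 10.7 and 14.8 CPM in wild type and 20.4, 34.8 and 24.2 CPM in knockout, again with no overlap. The log2 fold change was 1.11 ± 0.22 (SE; adjusted p = 0.0556, edgeR's quasi-likelihood test). The longest transcript of neither gene shares a 50-base stretch with a transcript of another annotated gene. Shorter shared stretches were not examined. Counts of Sult1b1 per count of Sult1d1 were 1.23, 1.21 and 1.27 in wild type and 1.06, 1.45 and 1.15 in knockout, which overlap. Together both genes held 3.33% to 4.39% of the set's counts in wild type and 5.67% to 7.59% in knockout.

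The groups of the other 4 tested sulfotransferases overlap, and none of these genes passed the threshold. Sult2b1, a cholesterol sulfotransferase named after its values were seen, measured 3.92, 6.22 and 4.16 CPM in wild type and 3.00, 4.98 and 6.18 CPM in knockout. Summed over the family, the level was 12.6 ± 1.64 CPM per kilobase in wild type and 23.5 ± 3.75 in knockout (SD, n = 3 each), and the groups did not overlap. Sult1b1 gave 4.67 of it in wild type and 10.1 in knockout, and Sult1d1 gave 4.07 and 8.85. The family sum therefore largely restates both genes. With 3 samples against 3 an exact permutation test of such a sum cannot give a two-sided p under 0.1, so no p is given for family sums.

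The promoters of both sulfotransferase genes are shown because both genes separated the groups, in the same direction. Each sequence holds the 250 bases before a RefSeq start (GRCm38.p6), read 5′ to 3′ on the minus strand, with capitals for the xenobiotic response element core GCGTG on either strand. Sult1b1 has a pair of annotated starts, at the inner of which chr5:87536223-87536472 holds the core, while chr5:87538196-87538445 before the outer start holds none of the motifs searched. The Sult1d1 window is chr5:87569007-87569256.
Sult1d1: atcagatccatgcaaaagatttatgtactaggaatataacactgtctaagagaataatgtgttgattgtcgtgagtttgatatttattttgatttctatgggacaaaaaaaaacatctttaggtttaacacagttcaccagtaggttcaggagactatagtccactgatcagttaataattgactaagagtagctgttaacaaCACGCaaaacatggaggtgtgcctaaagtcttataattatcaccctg
Sult1b1 inner start: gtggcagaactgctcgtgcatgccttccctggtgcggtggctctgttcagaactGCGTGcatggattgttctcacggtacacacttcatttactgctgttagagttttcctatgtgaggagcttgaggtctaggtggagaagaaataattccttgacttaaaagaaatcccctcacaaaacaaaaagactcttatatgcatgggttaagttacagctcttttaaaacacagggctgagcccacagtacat
Sult1b1 outer start: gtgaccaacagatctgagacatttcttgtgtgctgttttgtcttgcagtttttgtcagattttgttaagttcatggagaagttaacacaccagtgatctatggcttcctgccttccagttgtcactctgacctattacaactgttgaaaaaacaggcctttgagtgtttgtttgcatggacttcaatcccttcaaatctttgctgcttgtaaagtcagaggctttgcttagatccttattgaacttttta
The core GCGTG, which the aryl hydrocarbon receptor and its partner ARNT bind, occurred in 28.2% of all 32851 promoter windows of this length and in 20.2% of the 129 windows of the enzyme genes. Its presence here is therefore no more frequent than among promoters in general, and a match of letters shows no binding.

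Glutathione transferases of the alpha, mu, pi and theta classes were all measured in crypts, and none passed the adjusted threshold. Gsta4 conjugates 4-hydroxynonenal, a toxic aldehyde from lipid peroxidation. It measured 2.65, 1.24 and 1.80 CPM in wild type and 5.34, 5.99 and 3.21 CPM in knockout. The groups did not overlap, the log2 fold change was 1.36 ± 0.37 (SE) and the adjusted p was 0.126 (quasi-likelihood test of edgeR). Gsta4 held 68.0% of the alpha-class level, and no 50-base stretch of it was shared with another gene. Gsta1, by contrast, shares 89.7% of its stretches with other genes and was measured at 0.317, 0.447 and 2.36 CPM in wild type and 0.609, 1.71 and 1.32 CPM in knockout.

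All 7 mu-class genes were tested, and all 7 log2 fold changes were above 0, from 0.11 to 1.38. Gstm1, the most abundant, was at 21.1, 15.2 and 18.3 CPM in wild type and 19.2, 19.1 and 23.2 CPM in knockout, and these groups overlap. Gstm5 was at 6.06, 6.33 and 5.35 CPM in wild type and 8.62, 7.61 and 9.06 CPM in knockout. Gstm7 was low, at 1.07, 0.241 and 0.661 CPM in wild type and 2.15, 1.71 and 1.27 CPM in knockout. Both separated the groups, with adjusted p of 0.280 for Gstm5 and 0.293 for Gstm7 (edgeR). So did Gstm4, named after its values were seen (adjusted p = 0.363 in edgeR). Gstm4 was at 0.475, 0.138 and 0.819 CPM in wild type and 0.984, 1.52 and 1.23 CPM in knockout. Gstm4 and Gstm7 missed the count minimum of the filter in wild-type replicate 2. Exons of Gstm5 overlap 4933431E20Rik, which shares 10.1% of its 50-base stretches, and without a stated strand setting their reads cannot be told apart.

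In the mu class, an antioxidant response element was found before a start of Gstm5 and Gstm7, and none was found for Gstm4. This element is the TGACNNNGC motif of the stress factor NRF2 (gene Nfe2l2). The windows of Gstm5 and Gstm7 are shown, with the motifs in capitals. The Gstm5 window is chr3:107895604-107895853 on the plus strand, where the antioxidant element overlaps a second GCGTG core read on the other strand. The Gstm7 window is chr3:107931615-107931864 on the minus strand, before the inner of its 2 starts. The Gstm7 element lies between these starts, and the window before the outer start (chr3:107931818-107932067) holds no such element.
Gstm5: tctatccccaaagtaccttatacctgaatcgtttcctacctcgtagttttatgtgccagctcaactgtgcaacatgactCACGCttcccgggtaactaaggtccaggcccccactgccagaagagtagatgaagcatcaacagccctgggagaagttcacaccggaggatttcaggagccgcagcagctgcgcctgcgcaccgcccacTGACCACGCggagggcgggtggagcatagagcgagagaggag
Gstm7: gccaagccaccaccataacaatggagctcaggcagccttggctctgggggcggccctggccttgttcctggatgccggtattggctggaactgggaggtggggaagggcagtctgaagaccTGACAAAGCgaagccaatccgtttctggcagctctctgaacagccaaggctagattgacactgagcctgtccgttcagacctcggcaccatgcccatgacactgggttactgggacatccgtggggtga
The antioxidant element occurred in 10.2% of all windows and in 3.88% of the windows of the enzyme genes, where Cyp4f14, Cyp4f18 and Gsta3 held the others. The HNF4-type motif CAAAGTCCA, also searched, was in 0.384% of all windows and 3.88% of the enzyme windows (Cyp2c65, Cyp2c67, Cyp2c68, Cyp2c70 and Cyp3a11). The TATA box (TATAAA) was in 12.4% of all windows and 18.6% of the enzyme windows.

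Gstp1, the pi-class transferase, measured 4.87, 4.13 and 5.57 CPM in wild type and 8.48, 7.28 and 6.61 CPM in knockout. The groups were apart (log2 fold change 0.62, adjusted p = 0.244 in edgeR), but 62.3% of its 50-base stretches are shared with Gstp2, so the 2 cannot be separated fully. Gstp3, beside it, was at 3.64, 6.74 and 1.07 CPM in wild type and 4.50, 6.18 and 3.87 CPM in knockout, a wide spread with overlap. Gstt3, of the theta class, was at 11.1, 10.5 and 10.1 CPM in wild type and 12.9, 13.4 and 12.4 CPM in knockout, and these groups are apart. Gstt1, of the same class, overlapped at 5.27, 6.12 and 3.28 CPM in wild type and 5.34, 5.76 and 7.74 CPM in knockout. Summed levels of the theta class were 12.6 ± 0.182 and 15.8 ± 1.66 CPM per kilobase (SD, n = 3 each) and did not overlap. Gsto1 overlapped between groups, at 35.2, 35.6 and 28.7 CPM in wild type and 34.7, 38.3 and 33.4 CPM in knockout, while Gsto2, the other omega-class gene, had 8, 0 and 0 counts against 4, 2 and 5 and was not tested. Gstz1, which isomerises maleylacetoacetate in tyrosine breakdown, was at 14.6, 7.91 and 12.3 CPM in wild type and 9.18, 8.11 and 9.58 CPM in knockout, and Gstk1 averaged 1.05 CPM per kilobase.

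Glucuronosyltransferases were carried by Ugt2b34, with 76.4% of the Ugt2 level. It measured 63.5, 73.6 and 61.8 CPM in wild type and 67.5, 93.4 and 70.3 CPM in knockout, and the groups overlap. Ugt2b35 was at 7.96, 7.56 and 7.53 CPM in wild type and 11.7, 11.1 and 10.3 CPM in knockout. The library values of Ugt2b35 lay close together within each group (log2 fold change 0.52 ± 0.19 SE, adjusted p = 0.231 in edgeR). Ugt2b5 had the largest positive log2 fold change of the set, 1.87 ± 0.54 (SE; adjusted p = 0.142 in edgeR), at 0.357, 0.378 and 0.598 CPM in wild type and 1.26, 2.07 and 1.60 CPM in knockout. With 9 counts in wild-type replicate 1, Ugt2b5 missed the count minimum of the filter there and reached it in all knockout libraries. It shares 41.7% of its stretches with other genes, Ugt2b38 first among them. The Ugt1 family is built from 1 locus whose genes share their last exons: Ugt1a7c shares 69.3% and Ugt1a1 80.2% of its stretches, so single Ugt1 genes are uncertain. Their summed level was 4.01 ± 1.43 CPM per kilobase in wild type and 4.08 ± 0.583 in knockout (SD, n = 3 each).

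**Figure D2:**
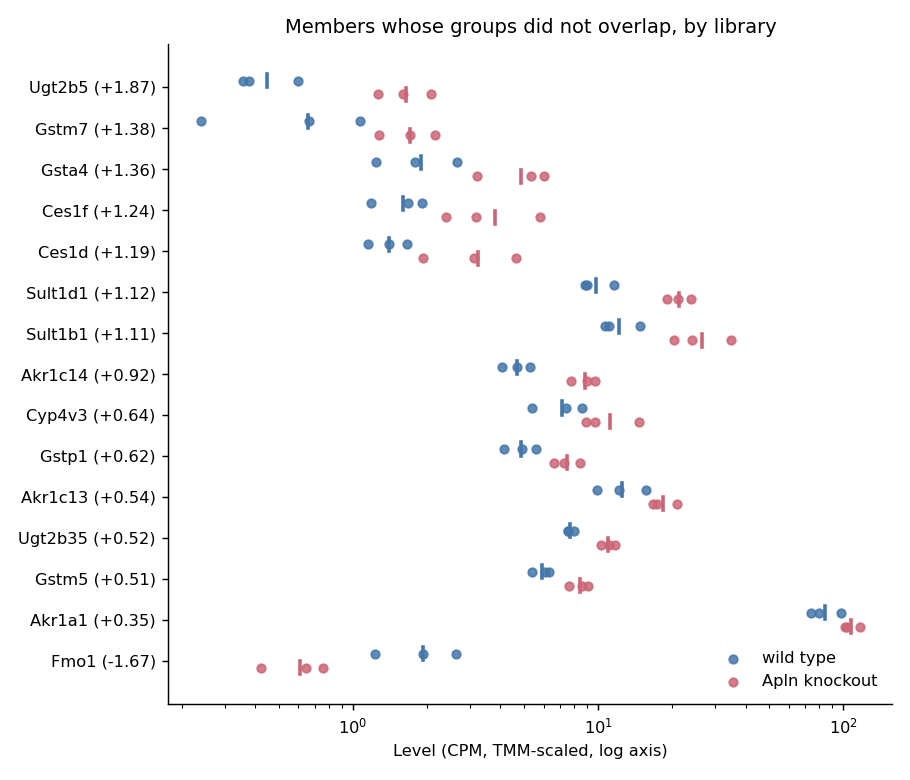
CPM (log axis) of the 15 enzyme genes whose groups did not overlap and whose unadjusted p was under 0.05; points are libraries, blue for wild type and red for Apln knockout, bars are group means, and the log2 fold change stands beside each name. 14 genes lie higher in knockout and Fmo1 lies lower, and Sult1d1 alone passed the adjusted threshold.

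Among phase 1 enzymes, the aldo-keto reductases were the most abundant, and 3 of their 10 tested genes separated the groups, where 20.9% of all genes tested did so in either direction. With so few genes, 3 of 10 is near that share. Akr1a1 measured 73.7, 79.9 and 98.3 CPM in wild type and 117, 104 and 101 CPM in knockout, a narrow gap with a log2 fold change of 0.35 ± 0.16 (SE; adjusted p = 0.310 in edgeR). Akr1c14, a 3-alpha-hydroxysteroid dehydrogenase, was at 5.27, 4.06 and 4.66 CPM in wild type and 9.74, 8.99 and 7.74 CPM in knockout. Akr1c14 had the third lowest p of the set (log2 fold change 0.92 ± 0.23 SE, adjusted p = 0.0989 in edgeR). Akr1c13 was at 9.86, 12.1 and 15.7 CPM in wild type and 16.7, 20.97 and 17.4 CPM in knockout, with an adjusted p of 0.238. Akr1c12, of the same cluster on chromosome 13, overlapped between groups at 21.8, 11.3 and 13.3 CPM in wild type and 19.6, 20.2 and 20.9 CPM in knockout. The family sum was 69.7 ± 7.31 and 89.2 ± 3.28 CPM per kilobase (SD, n = 3 each), with no overlap.

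Carboxylesterases, which hydrolyse ester and amide drugs and neutral lipids, had positive log2 fold changes in 8 of 8 tested genes, none past the adjusted threshold. Ces2e led the family with 43.8% of its level and measured 10.3, 13.0 and 23.8 CPM in wild type and 19.2, 28.5 and 17.2 CPM in knockout. Its wild-type replicate 3 lay within the knockout range. Ces1f was at 1.19, 1.68 and 1.92 CPM in wild type and 3.18, 5.81 and 2.41 CPM in knockout (adjusted p = 0.178 in edgeR). Ces1d, also a triglyceride hydrolase, was at 1.15, 1.41 and 1.67 CPM in wild type and 4.64, 1.94 and 3.11 CPM in knockout (adjusted p = 0.206). Ces1f and Ces1d separated the groups, with knockout values that spread widely. They were 2 of the 4 tested genes of the Ces1 cluster and 2 of 8 tested in the family, beside 20.9% of all genes tested. Ces2a, the second most abundant, was at 5.43, 1.93 and 6.58 CPM in wild type and 6.18, 6.91 and 7.17 CPM in knockout.

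The most abundant P450s had groups that overlap. Cyp2s1, a P450 of epithelia outside the liver, measured 20.8, 39.4 and 25.04 CPM in wild type and 25.2, 35.4 and 33.7 CPM in knockout. Cyp4f14, which hydroxylates leukotriene B4 and fatty acids, measured 25.3, 22.6 and 37.8 CPM in wild type and 26.1, 34.7 and 31.3 CPM in knockout. The groups of both overlap. Cyp2c65, an intestinal P450 that oxidises arachidonic acid, was at 6.85, 6.29 and 5.86 CPM in wild type and 6.74, 7.24 and 7.69 CPM in knockout. Cyp3a13 was at 9.27, 10.6 and 7.87 CPM in wild type and 7.68, 11.98 and 11.2 CPM in knockout, and Cyp4f40 overlapped too. Cyp4v3, a fatty acid hydroxylase, was the only P450 with separate groups and an unadjusted p under 0.05, at 8.64, 5.40 and 7.40 CPM in wild type and 14.8, 8.94 and 9.72 CPM in knockout (adjusted p = 0.260 in edgeR).

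Cyp3a11 was low and variable, at 1.19, 0.309 and 0.409 CPM in wild type and 2.29, 0.968 and 1.37 CPM in knockout. Wild-type replicate 1 lay above knockout replicate 2, and the log2 fold change of 1.29 ± 0.64 (SE) had an adjusted p of 0.367 in edgeR. Cyp2u1, a fatty acid hydroxylase named after its values were seen, had an unadjusted p under 0.05 in the other direction. It was at 8.87, 8.66 and 2.52 CPM in wild type and 2.39, 4.15 and 3.16 CPM in knockout, so that wild-type replicate 3 lay among the knockout libraries (log2 fold change -1.04, adjusted p = 0.264 in edgeR). Without that library the edgeR test called 3 of 82 enzymes tested, Cyp2u1, Sult1b1 and Sult1d1, in place of 1, and 2.27% of all genes tested.

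Flavin monooxygenases oxidise nitrogen and sulfur in drugs, and Fmo1 was the gene of the set with the largest negative log2 fold change, -1.67 ± 0.52 (SE; adjusted p = 0.164 in edgeR). It measured 1.23, 1.93 and 2.65 CPM in wild type and 0.422, 0.645 and 0.755 CPM in knockout, with no overlap. Fmo5, which carried 53.6% of the family and can insert oxygen beside ketones, was at 8.36, 15.8 and 16.6 CPM in wild type and 16.8, 14.8 and 17.3 CPM in knockout. Fmo4 averaged 1.45 CPM per kilobase with overlapping groups. The quinone reductase Nqo1, the textbook NRF2 target, was at 2.50, 2.96 and 3.43 CPM in wild type and 3.56, 5.21 and 4.01 CPM in knockout. These ranges were narrowly apart, and the log2 fold change of 0.52 did not pass (adjusted p = 0.446 in edgeR). Nqo2 carried 64.7% of the Nqo level, was at 17.6, 16.7 and 10.4 CPM in wild type and 18.9, 21.2 and 13.4 CPM in knockout, and shares 18.9% of its stretches with Serpinb6a.

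Counted over the 80 tested genes, 66 log2 fold changes (82.5%) were above 0, against 49.5% of all 15122 genes tested. The median was 0.35 (quartiles 0.11 and 0.62) for the enzymes and -0.01 (quartiles -0.31 and 0.31) for all genes. An unadjusted p under 0.05 with a higher knockout level was found for 14 of 80, where the share over all genes was 7.53%, and with a lower level for 2 of 80, where it was 7.66%. Groups did not overlap for 18 of 80, against 20.9% of all genes in either direction. They did not overlap with a higher knockout level for 17 of 80, where the share over all genes was 11.3%. Of the 80, 10 reached the count minimum of the filter in all 3 knockout but fewer wild-type libraries, and 3 did the reverse. Counts over the tested enzymes may therefore lean toward knockout. These counts and medians describe a set chosen by name, and no test of the set was made.

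Transcripts of the enzymes were shorter than most, with a median of 1990 bases against 3010 for all genes tested. After a correction of each library for transcript length and GC content, the median of the enzymes was 0.25 and that of all genes 0.01, and 60 of 80 (75%) were above 0 against 51.2% of all genes. No enzyme passed the adjusted threshold after that correction, against 1 before it. Sult1d1 then had a log2 fold change of 0.95 and Sult1b1 of 0.98.

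**Figure D3:**
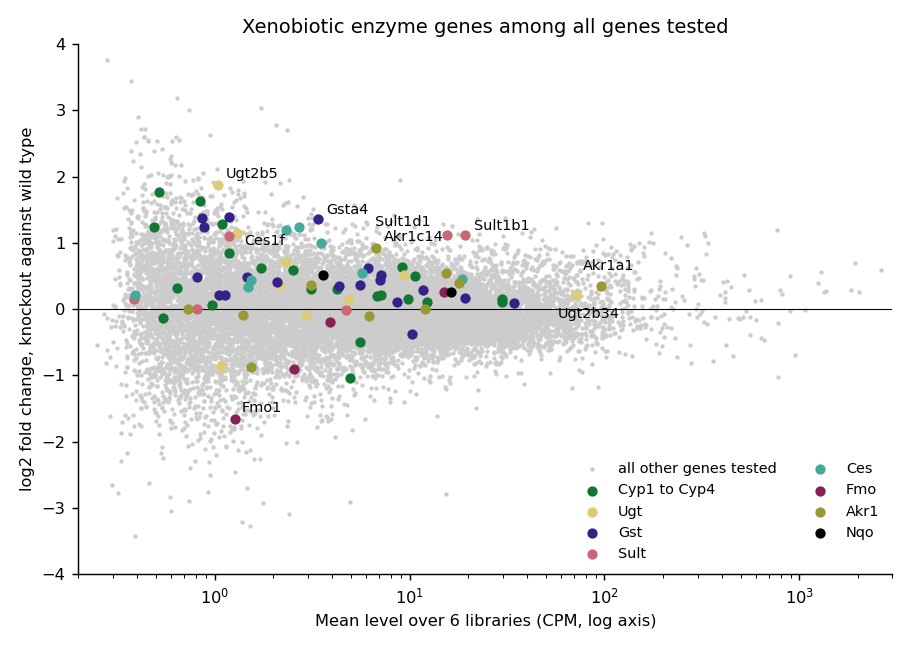
Log2 fold change of knockout against wild type plotted over the mean CPM of 6 libraries (log axis); grey points are all other genes tested and coloured points are the 80 tested enzyme genes by family. 66 of the 80 lie above 0; Sult1d1 and Sult1b1 lie at 1.12 and 1.11, and Ugt2b5 and Fmo1 mark the highest and lowest values of the set.

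Many of these genes sit in tandem clusters, which allows neighbours to be compared. In the cluster from Ugt2b34 to Sult1d1 (chromosome 5, 86889767 to 87569027) 7 of 8 genes were tested, all 7 log2 fold changes were above 0, from 0.22 to 1.87, and the groups of 4 did not overlap, beside 20.9% of all genes tested. The mu-class cluster (chromosome 3, 107895821 to 108044894) had 7 of 7 above 0 and 3 without overlap, to be read against the same 20.9%. The Ces1 and Ces2 clusters on chromosome 8 had 4 of 4 tested genes above 0 each. At the other end, all 3 genes of the Fmo4 to Fmo2 cluster on chromosome 1 were below 0, from -1.67 to -0.20. The Ugt1a cluster was mixed, with 2 of 4 above 0. Neighbours can share sequence and so share reads, and genes of 1 cluster are not independent.

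**Figure D4:**
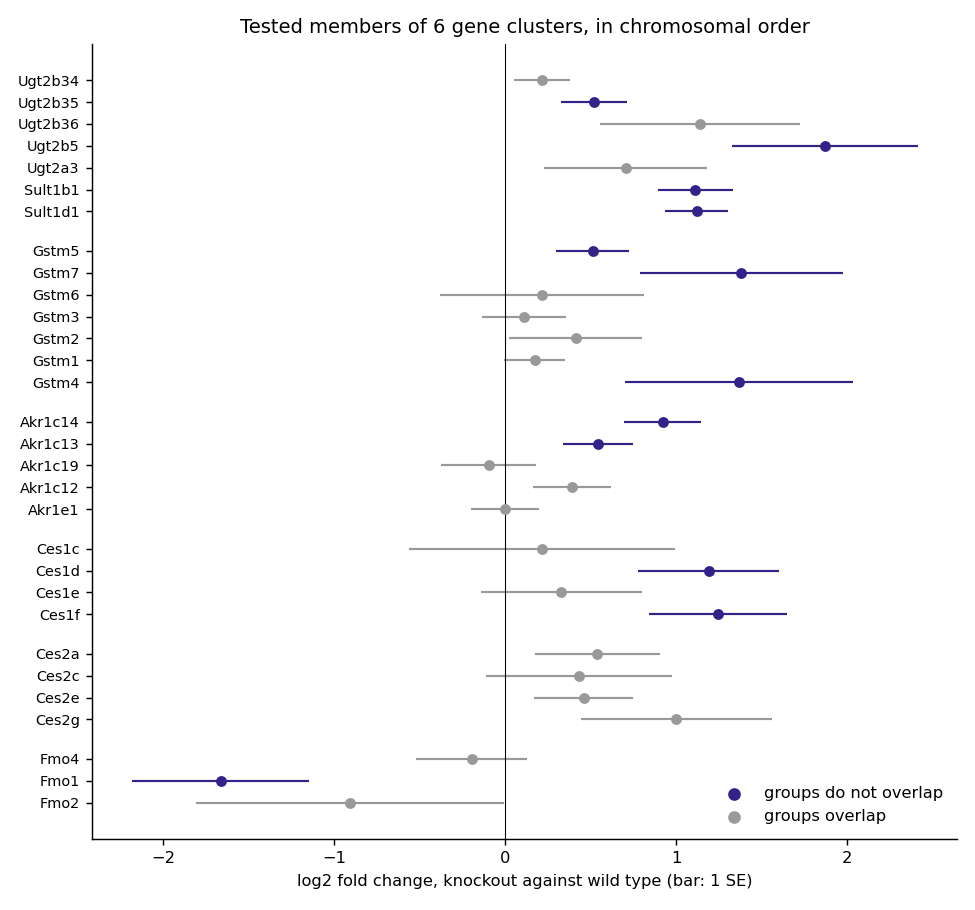
Log2 fold change (point) and its standard error (bar) for tested genes of 6 groups of neighbouring genes, in chromosomal order within each group; dark points mark genes whose wild-type and knockout libraries did not overlap. All points of the cluster from Ugt2b34 to Sult1d1 lie above 0 and all 3 Fmo points lie below 0.

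The regulators of these enzymes were measured in the same libraries. Nr1i2 encodes PXR, the nuclear receptor that switches on Cyp3a and other drug-metabolising genes when it binds a foreign chemical. It measured 12.004, 12.8 and 12.7 CPM in wild type and 7.17, 5.62 and 6.18 CPM in knockout. The groups lay far apart relative to their spread, with means of 12.5 ± 0.436 and 6.32 ± 0.781 CPM (SD, n = 3 each), and the log2 fold change of -0.98 ± 0.20 (SE) had an adjusted p of 0.0575 in edgeR. Ahr, the aryl hydrocarbon receptor, averaged 5.67 CPM in wild type and 6.48 in knockout (adjusted p = 0.797), and its sign turned to -0.11 (log2) without knockout replicate 3. Its partner Arnt had a log2 fold change of -0.51 (adjusted p = 0.199). Nfe2l2, which encodes NRF2, averaged 79.5 and 71.1 CPM (adjusted p = 0.713, all in edgeR's quasi-likelihood test). Of the 17 regulators tested, 0 passed the adjusted threshold, 2 had an unadjusted p under 0.05 and both were lower, and the median log2 fold change was -0.22. An unadjusted p under 0.05 with a lower level was found for 7.66% of all genes tested.

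P450s draw electrons from Por, and phase 2 enzymes need glutathione, activated sulfate and UDP-glucuronic acid. Por averaged 10.3 and 11.4 CPM (adjusted p = 0.820 in edgeR), and its log2 fold change turned from 0.14 to -0.02 without wild-type replicate 1. Gss, glutathione synthetase, was at 25.4, 23.9 and 26.4 CPM in wild type and 36.7, 38.5 and 37.3 CPM in knockout (log2 fold change 0.57, adjusted p = 0.0989 in edgeR). Its libraries were tightly grouped and apart. Pgrmc1, a heme-binding partner of P450s, had a log2 fold change of 0.61 (adjusted p = 0.192). Of 16 such genes, 0 passed the adjusted threshold, and 3 with a higher and 1 with a lower level had an unadjusted p under 0.05. Of all genes tested, 7.53% were higher and 7.66% lower at that p.

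Enzymes of the same phases outside the named families included Mgst1, the microsomal glutathione transferase. Mgst1 measured 33.3, 32.8 and 43.5 CPM in wild type and 59.2, 76.6 and 60.1 CPM in knockout, without overlap (log2 fold change 0.84 ± 0.17 SE, adjusted p = 0.0592 in edgeR). Xdh, xanthine oxidoreductase, averaged 23.2 and 14.2 CPM (log2 fold change -0.71, adjusted p = 0.115). Of 21 tested in that list 0 passed, with 4 higher and 2 lower at an unadjusted p under 0.05. At that level 7.53% of all genes tested were higher and 7.66% lower, to be read beside each list here. Among 12 tested NRF2 targets outside the families, 0 passed and 4 were higher at that level, led by Taldo1 of the pentose phosphate pathway (0.78, adjusted p = 0.0911) and the ferritin subunit Fth1 (0.70, adjusted p = 0.104). Among 15 tested drug transporters 0 passed and 1 was lower, with Slco3a1 at -0.52 and Abcc1 at -0.47 (adjusted p of 0.317 and 0.363 in edgeR).

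Markers of crypt cell types were measured in the same libraries, and in bulk RNA fewer cells of a type and less RNA per cell cannot be told apart. Summed over 8 Paneth cell markers the level was 648 to 1020 CPM in wild type and 1080 to 2572 CPM in knockout, and 5 of 8 had an unadjusted p under 0.05. Lyz1 held much of the summed level, at 587, 383 and 431 CPM in wild type and 1575, 632 and 993 CPM in knockout. Of those 5, Lyz1 and Mptx2 had groups apart, while the groups of Defa17, Defa24 and Itln1 overlap. Tuft cell markers summed to 74.96 to 104 CPM in wild type and 24.8 to 60.3 CPM in knockout. Of these, 5 of 6 tested were lower at an unadjusted p under 0.05. Enteroendocrine markers summed to 916 to 1379 CPM and 642 to 792 CPM, with 4 of 8 lower. Markers of dividing progenitors were at 538 to 635 and 426 to 492 CPM, and 1 of 6 was lower. That gene was Mki67, with means of 354 and 201 CPM, while 5 of the 6 log2 fold changes were above 0 (median 0.11). No marker of any list passed the adjusted threshold. Of all genes tested, 7.53% were higher and 7.66% lower at an unadjusted p under 0.05. The part of these marker differences in the enzyme results was not tested.

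Markers of enterocytes, the cells known for these enzymes, summed to 655 to 774 CPM in wild type and 665 to 979 CPM in knockout over 12 genes, and these ranges overlap. In that list 2 genes were higher and 1 was lower at an unadjusted p under 0.05, beside 7.53% and 7.66% of all genes tested. Stem cell markers summed to 813 to 1214 and 851 to 1639 CPM, and goblet cell markers to 1506 to 4949 and 2248 to 2408 CPM, with 2 of 7 lower. Endothelial markers were low, at 0.550 to 1.66 and 0.0461 to 0.796 CPM, and none of the 4 in the table was tested. Pecam1, the CD31 gene, had 33, 7 and 6 counts in wild type and 13, 1 and 7 in knockout. Among hepatocyte markers, Alb had 0, 0 and 0 counts in wild type and 1, 0 and 1 in knockout, and Serpina1a had 0, 0 and 2 against 1, 0 and 4. Ttr had 23, 22 and 59 counts in wild type and 69, 28 and 83 in knockout, the 1 gene of that list higher at an unadjusted p under 0.05, with overlapping groups. Apob, which enterocytes also express, was at 189.97, 268 and 191 CPM in wild type and 160.1, 203 and 168 CPM in knockout. Mesenchyme markers were at 4.79 to 38.9 and 14.1 to 25.9 CPM, and markers of blood-derived cells, Cd74 among them, at 582 to 854 and 422 to 611 CPM. Of 5 tested in the list of blood-derived cells 2 were lower at an unadjusted p under 0.05, Ptprc (the CD45 gene) with groups apart and Cd74 with groups that overlap. The listed markers Emcn (endothelium) and Ahsg (hepatocyte) were not among the genes of the table, which holds no gene with 0 counts in every library.

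**Figure D5:**
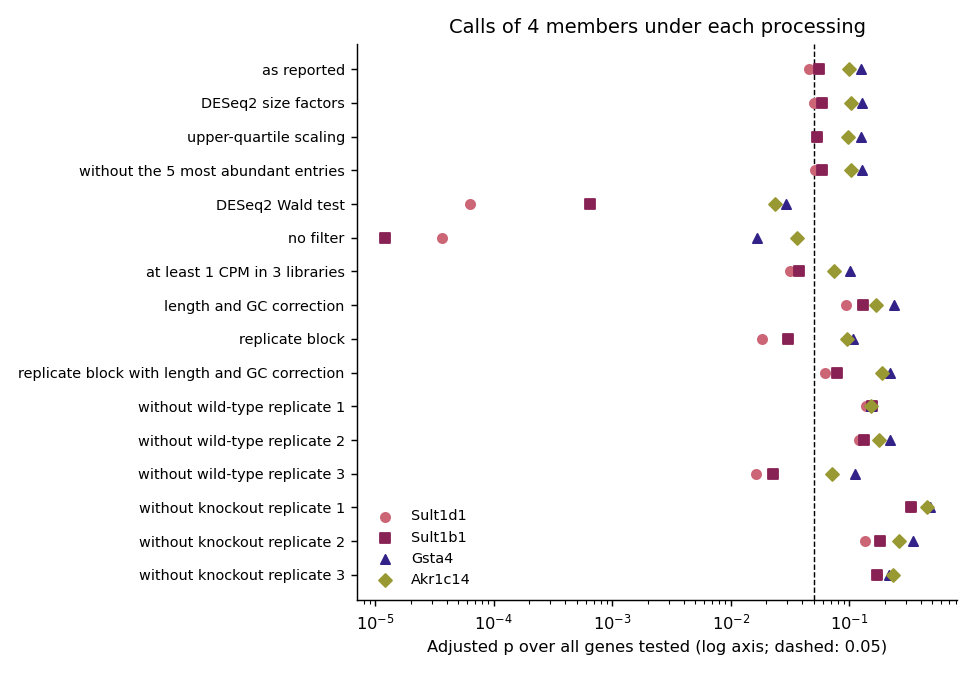
Adjusted p (log axis) of Sult1d1, Sult1b1, Gsta4 and Akr1c14 under the reported processing and 15 alternatives; the dashed line is the threshold of 0.05. Sult1d1 lies left of the line as reported and under 5 alternatives, and its highest value, 0.331, comes without knockout replicate 1.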

How the data were processed

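RNA of sorted crypt epithelial cells was amplified (Ovation Pico WTA System V2) and made into libraries (Nextera DNA Flex), per the labels' protocols. STAR 2.6.1, HTSeq and the build mm10 come from the submitters' processing notes. The counting annotation and strand setting were not given in the sources used here. Deposited were raw counts per gene that the authors did not normalize, for 28564 identifiers, of which 28551 matched GENCODE M21 (GRCm38, the same build) and 13 did not. Symbols, positions and the longest transcript came from there.

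Counts were fitted in R 4.3.3 with edgeR 4.0.16: filterByExpr by genotype (count minimum 10, total minimum 15), TMM, glmQLFit and glmQLFTest on all 15122 genes left, no covariate, Benjamini-Hochberg adjustment over all of them. The common biological coefficient of variation was 0.298. The test was tested on simulated counts. The length and GC correction subtracted a spline with 5 degrees of freedom per library as an offset. Floors of 3 counts cover counting error only, since reads are not independent molecules. Replicate libraries differed by more than sampling noise (chi-square per degree of freedom 7.60 to 54.8). P-values measure the spread between these samples.

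Shared 50-base stretches were counted between GENCODE transcripts. Promoters are RefSeq windows (GRCm38.p6), found for 110 of the 127 genes.

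The genes, lists, tests and alternatives were chosen with earlier results of these data known. Named are enzymes past the adjusted threshold, those with an unadjusted p under 0.05 and no overlap, the 2 of highest CPM per kilobase per family, Sult1d1, Gsta4, Cyp1a1, Cyp3a11 and Nqo1. Named besides are Ahr, Nr1i2, Nfe2l2, Por and the 2 genes of lowest p of each pathway list. DESeq2 1.42.0 was an alternative.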

Additional observations from a re-analysis of the deposited data

How the results depend on the processing

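The number of genes and of enzymes called depended on the processing, and the direction of most named genes did not. With edgeR's quasi-likelihood test 26 genes and 1 enzyme were called. DESeq2 size factors, upper-quartile scaling, removal of the 5 most abundant entries and the length and GC correction gave 1 gene and 0 enzymes each. The DESeq2 Wald test gave 551 of 10288 genes and 4 of 49 enzymes (Akr1c14, Gsta4, Sult1b1 and Sult1d1). No filter gave 629 of 28564 genes and 6 of 127 enzymes. The 6 were the same 4, Cyp2u1, which was lower, and Cyp2d22, with 155 of its 186 counts in wild-type replicate 2. A minimum of 1 CPM in 3 libraries gave 117 of 12544 genes and 2 of 69 enzymes. The share of calls that were higher in knockout was 65.4% as reported, 47.9% by the Wald test and 52.1% with no filter. The single gene called with size factors, with upper-quartile scaling, without the 5 entries and with the length and GC correction was lower in knockout each time. The replicate block gave 173 genes and 2 enzymes, and with the length and GC correction 18 genes and 0 enzymes. Same-numbered samples did not deviate together (correlations 0.0406, 0.0569 and 0.0109), so their numbers were not taken as pairs, though every sample except knockout replicate 3 correlated best with its own number, a hint from the data and not from the design. The titles and descriptions number the knockout samples differently. Leaving out 1 library gave 0 to 358 genes and 0 to 3 enzymes, with 358 and 3 without wild-type replicate 3. Enzymes at an unadjusted p under 0.05 numbered 16, and 9 to 22 with 1 library left out, the 9 without knockout replicate 1. Their median log2 fold change moved from 0.35 to 0.25 with the length and GC correction. Of 31 named genes with a fold change, 29 kept their sign under all 15 alternatives; with 1 library left out, Por ranged from -0.0201 (without wild-type replicate 1) to 0.41 and Ahr from -0.11 (without knockout replicate 3) to 0.37, and the cause was not tested. Genes under 1 CPM rest on few counts in these libraries, and differences there were often not detectable at this depth.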

Other observations

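Some enzymes left out by the count filter still had groups that did not overlap in CPM. Sult6b2, a sulfotransferase with no tested value, had 1, 5 and 0 counts in wild type and 20, 10 and 8 in knockout. Cyp4a32 had 3, 1 and 0 counts in wild type and 6, 6 and 4 in knockout, and Ces2f had 0, 0 and 3 against 3, 6 and 4, so that the groups of Ces2f meet at 3 counts. All 3 were named after their values were seen, and no fold or test is given at these counts. Fmo2, a tested flavin monooxygenase of the lung, varied more within groups than between them, with 49, 232 and 4 counts in wild type and 20, 71 and 24 in knockout.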
